A study of Mus musculus with 12 samples.

Results

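Transcript levels of 8 interferon-inducible GTPases were followed in the mouse proximal tubule epithelial line PT-22: the guanylate-binding protein genes Gbp2, Gbp3, Gbp5, Gbp7 and Gbp9, and the immunity-related GTPase genes Irgm1, Irgm2 and Igtp. They were chosen by gene symbol, and all 8 were found among the 55491 genes of the deposited tables. The control group was untreated cells at baseline, and the treated groups, labelled day 2, day 6 and day 12 after treatment, had received 1 µM 4-hydroxytamoxifen for 2 days to remove PAX8. Each of these 4 groups held 3 polyA RNA libraries, lettered A, B and C. Cells of every group, control included, shared the genotype Pax2-/-, Pax8fl/fl, Rosa-CreERT2, so each lacked Pax2 by label and carried a tamoxifen-activated Cre driven from the Rosa locus. All libraries came from this 1 cell line, and the labels name neither a vehicle control nor untreated cells kept to later days. Effects of the drug, of Cre activity and of time in culture therefore cannot be told apart from those of PAX8 loss. Whether libraries A, B and C were separate cultures is not in the labels, so the spread behind each p-value may be technical.

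Guanylate-binding proteins are large, dynamin-like GTPases that assemble on the membranes of pathogens and of the vacuoles that hold them. Immunity-related GTPases are smaller relatives: Irgm1, Irgm2 and Igtp sit on the cell's own membranes and hold the effector members of their family in an inactive state. Both families are transcribed in response to interferon. Interferon-gamma acts through its receptor and JAK kinases on gamma-activated sites (GAS) in promoters, and type I interferons act mainly on interferon-stimulated response elements (ISRE), which IRF1 also binds.

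Library totals ran from 4326667 counts (day 2 B) to 11654959 counts (day 2 C), and 13513 genes passed the filter on low counts. The level of Pax8 itself, in CPM (counts scaled to the size of the library), was 225 ± 3.46 in control, 402 ± 51.0 on day 2, 256 ± 10.9 on day 6 and 242 ± 10.5 on day 12 (SD, n = 3 each). Against control, Pax8 was higher by 0.83 ± 0.07 on day 2 and 0.18 ± 0.07 on day 6 (log2 scale ± SE, edgeR adjusted p = 5.59e-12 and 0.0181). The day 12 value, 0.10 ± 0.07, did not pass (edgeR adjusted p = 0.189), and the cause of the rise was not tested. Which exons of Pax8 are deleted is not in the labels, and reads from exons that remain may enter these values. The levels therefore check neither the deletion nor the labels. Of 12 proximal tubule markers, 9 had a count, while Slc34a1, Slc5a2 and Slc5a12 were at 0 in all libraries. The summed level of the list lay between 1547 and 1650 CPM in control, 594 and 658 CPM on day 2, 308 and 342 CPM on day 6, and 140 and 153 CPM on day 12. In bulk RNA, fewer cells of a type and less RNA per cell cannot be told apart. Of 12 leukocyte markers, 8 had a count. Their sum was 19.0 to 21.3 CPM in control, 14.0 to 16.1 CPM on day 2, 17.9 to 18.9 CPM on day 6 and 9.10 to 10.3 CPM on day 12, with Cd3e, Cd3g, Ncr1 and Itgam at 0 throughout. Ptprc, the pan-leukocyte marker, had 18, 5 and 8 counts in the control libraries and 0 in every treated library. Of 6 fibroblast markers, 5 had a count and Pdgfra was at 0. Their sum was 2.19 to 2.77 CPM in control, 2.90 to 5.71 CPM on day 2, 7.20 to 8.05 CPM on day 6 and 20.2 to 23.7 CPM on day 12. On day 2 these markers did not share 1 direction. Dcn was at -4.10 ± 1.33 and Col1a1 at 0.86 ± 0.30 against control (edgeR adjusted p = 0.0285 and 0.0358). Of 6 endothelial markers, 4 had a count, with a sum of 0.277 to 0.836 CPM in control, 0.272 to 0.702 CPM on day 2, 0.696 to 1.47 CPM on day 6 and 1.13 to 1.52 CPM on day 12, and Cdh5 and Kdr at 0. The part of any other cell type in the levels of the GTPases was not tested.

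The 8 genes lie at 4 places in the genome (GRCm38, GENCODE M21). Gbp5 (142493978 to 142522344), Gbp7 (142530342 to 142550149), Gbp3 (142560026 to 142573209) and Gbp2 (142620602 to 142638008) stand in 1 run on the forward strand of chromosome 3. Gbp9 lies on the reverse strand of chromosome 5 (105077630 to 105139539) and overlaps Gbp4 and Gbp8 on that strand. Irgm1 is on the reverse strand of chromosome 11 (48861968 to 48871683). Igtp (58199556 to 58207591) and Irgm2 (58199618 to 58222782) overlap on the forward strand of the same chromosome. How reads shared by overlapping or closely related genes were divided rests on the authors' estimates, so values of Igtp, Irgm2 and Gbp9 are uncertain in that respect, as are those of the near-identical copies named further on.

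RefSeq promoter windows (GRCm38.p6, 250 bases before to 50 after a start site) were found for 7 of the 8 genes, with 2 start sites for Gbp3. They were searched on both strands for the letters GAAA, any 2 bases and GAAA again as ISRE, and for TTCNNNGAA as GAS, where N is any base. The ISRE letters were in a window of each of these 7 genes, in 7 of 8 windows, against 3.44% of all 32851 windows of the same length. GAS letters were in 4 of the 8 windows (Gbp5, Gbp7, Irgm2 and Igtp), against 8.30% of all windows. All 4 held both motifs, against 0.454% of all windows. The 150 bases before the start site are shown for the 6 of these genes whose change over time could be tested, since the same motif stands before genes that changed and genes that passed no test. Capitals mark the ISRE and GAS letters on either strand, overlapping ISRE matches run together, and each sequence reads 5′ to 3′ on the strand of its gene:
Gbp2, chr3:142620513-142620662, forward strand: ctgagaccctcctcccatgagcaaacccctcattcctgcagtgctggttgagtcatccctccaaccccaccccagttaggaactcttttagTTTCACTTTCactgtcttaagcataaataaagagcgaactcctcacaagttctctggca
Gbp3, chr3:142559894-142560043, forward strand: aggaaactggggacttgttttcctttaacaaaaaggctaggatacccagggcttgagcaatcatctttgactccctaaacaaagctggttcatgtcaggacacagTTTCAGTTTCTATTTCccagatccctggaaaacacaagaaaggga
Gbp7, chr3:142530186-142530335, forward strand: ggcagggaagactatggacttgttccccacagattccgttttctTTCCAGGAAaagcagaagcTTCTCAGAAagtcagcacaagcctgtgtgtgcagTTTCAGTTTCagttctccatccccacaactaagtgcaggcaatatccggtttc
Irgm1, chr11:48871421-48871570, reverse strand: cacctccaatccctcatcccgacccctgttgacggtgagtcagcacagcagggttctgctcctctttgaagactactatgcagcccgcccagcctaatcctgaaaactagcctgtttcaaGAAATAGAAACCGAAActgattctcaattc
Irgm2, chr11:58214827-58214976, forward strand: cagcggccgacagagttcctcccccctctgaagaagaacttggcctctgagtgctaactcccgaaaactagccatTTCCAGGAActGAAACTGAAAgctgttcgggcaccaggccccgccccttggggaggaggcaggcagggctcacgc
Igtp, chr11:58199406-58199555, forward strand: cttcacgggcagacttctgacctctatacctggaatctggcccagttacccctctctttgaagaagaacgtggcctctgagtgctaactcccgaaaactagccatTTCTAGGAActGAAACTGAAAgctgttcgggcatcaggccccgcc

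In Gbp2 the ISRE letters lay 59 to 50 bases before the start site, and in Gbp3 and Irgm1 a pair of overlapping ISRE matches began 45 and 30 bases before it. Gbp7 held 1 ISRE match and 2 GAS matches. Igtp and Irgm2 carried a GAS followed after 2 bases by an ISRE, and their windows shared an unbroken run of 61 bases. With the window of Igtp moved by 30 bases, 184 of 270 aligned bases were identical to those of Irgm2. Among the genes shown, the RefSeq start sites of Gbp2, Gbp3, Irgm1 and Irgm2 lie inside the GENCODE spans of those genes, not at their first base. That of Irgm2 lies farthest inside. For Irgm2, Gbp7 and the second start of Gbp3, the bases after the start were not found unbroken in a GENCODE transcript of the gene. These start sites are therefore less certain. In Gbp5, the ISRE letters lay 165 to 156 bases before the start, farther away than in the other 6 genes with a match. These matches are descriptions of letters and show no binding.

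**Figure D1:**
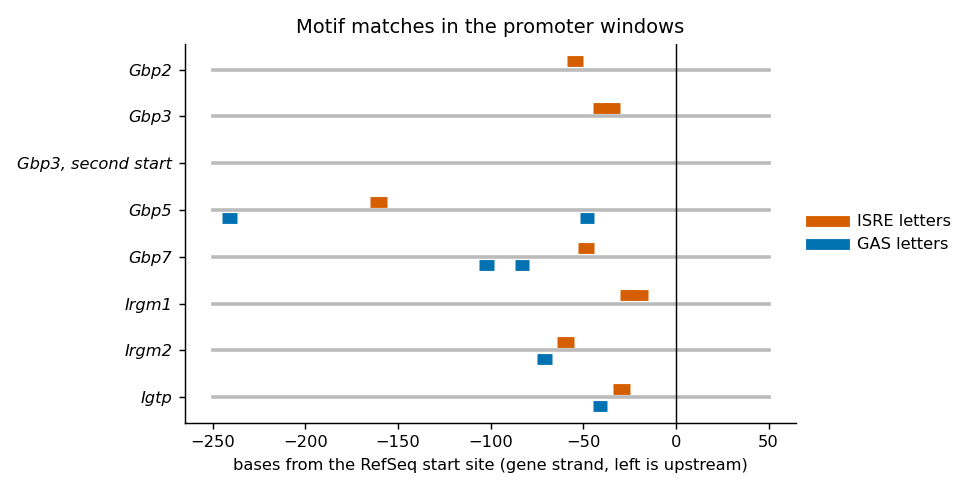
Positions of the ISRE letters (orange, above the line) and GAS letters (blue, below the line) in the 8 RefSeq promoter windows of the GTPase genes, in bases from the start site along the strand of the gene. ISRE letters stand in 7 of 8 windows, and Gbp5, Gbp7, Irgm2 and Igtp hold both kinds.

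Levels were compared between the genes in TPM, which scales for transcript length as well as library size. Irgm1 led in every group, and its level was 35.3 ± 3.85 TPM in control, 28.9 ± 1.94 TPM on day 2, 48.0 ± 1.02 TPM on day 6 and 60.6 ± 3.73 TPM on day 12 (SD, n = 3). In control it was followed by Igtp (9.77 ± 1.38 TPM), Irgm2 (6.49 ± 0.763 TPM), Gbp2 (4.64 ± 0.356 TPM), Gbp7 (1.03 ± 0.525 TPM), Gbp9 (0.520 ± 0.0866 TPM), Gbp3 (0.370 ± 0.337 TPM) and Gbp5 (0.103 ± 0.131 TPM). The libraries of Gbp9, Gbp3 and Gbp5 overlapped with their neighbours in that order, and the other steps did not overlap. From day 2 on, Gbp2 was second, above Igtp and Irgm2. On day 12 the order was Irgm1, Gbp2 (28.4 ± 1.42 TPM), Igtp (11.1 ± 1.20 TPM), Irgm2 (7.49 ± 0.444 TPM), Gbp7 (3.69 ± 0.488 TPM), Gbp3 (2.21 ± 0.951 TPM), Gbp9 (1.45 ± 0.372 TPM) and Gbp5 (0.360 ± 0.0700 TPM), with Gbp3 and Gbp9 the only overlapping neighbours. Igtp and Irgm2 overlapped on day 6, as did Gbp7 and Gbp3, while Gbp3 and Gbp7 overlapped on day 2.

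The summed level of the 8 genes was 58.2 ± 4.74 TPM in control, 62.3 ± 2.88 TPM on day 2, 88.4 ± 1.04 TPM on day 6 and 115 ± 3.65 TPM on day 12. Irgm1 made up 60.6% ± 2.90 of that sum in control, 46.4% ± 3.20 on day 2, 54.3% ± 1.73 on day 6 and 52.5% ± 1.80 on day 12. The share of Gbp2 was 8.01% ± 0.838 in control and 23.2% ± 2.25, 19.5% ± 0.941 and 24.7% ± 1.71 on days 2, 6 and 12. The control and day 2 sums overlapped between libraries, although their makeup differed.

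**Figure D2:**
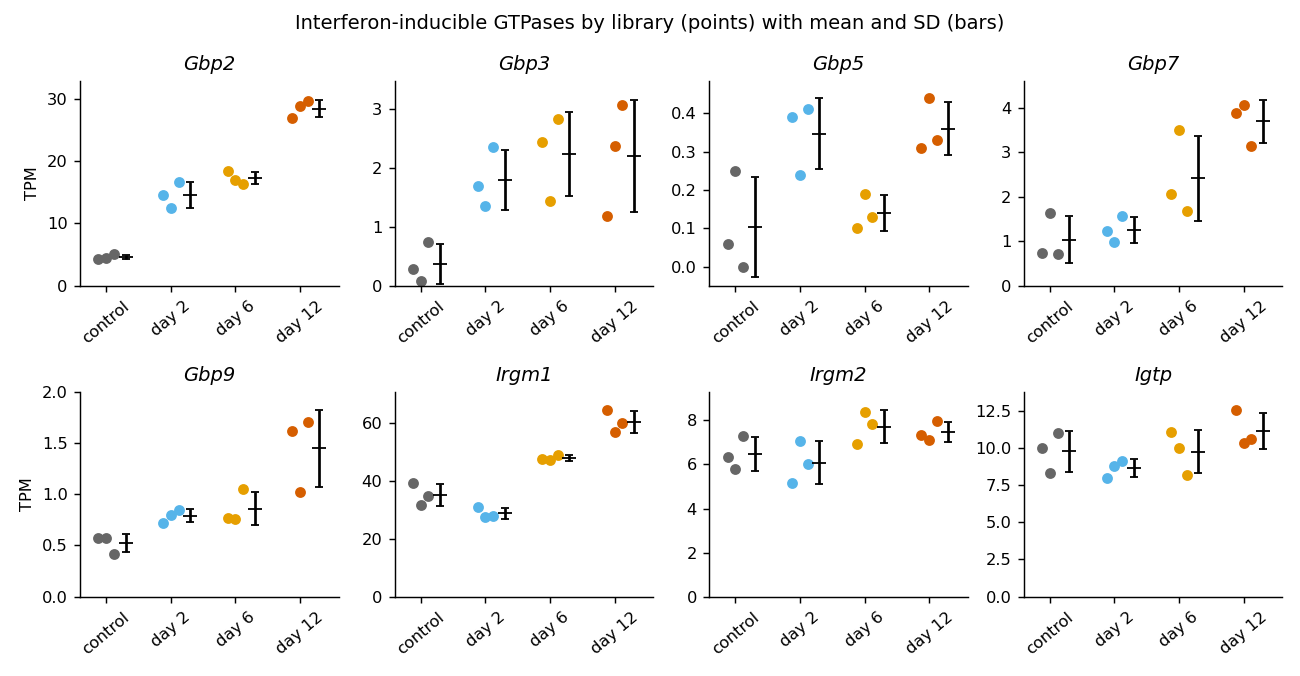
TPM of each of the 8 GTPase genes in every library (points, in the order A, B, C) of the control, day 2, day 6 and day 12 groups, with the mean and SD of each group as a black bar; each panel has its own scale. Gbp2 stood at 26.8 to 29.6 TPM in day 12 libraries against 4.35 to 5.04 TPM in control libraries, whereas the Igtp and Irgm2 points of these groups lie close together.

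Gbp2, a prenylated guanylate-binding protein that gathers on pathogen vacuoles, rose on every day. Its libraries held 57, 52 and 71 counts in control (7.06 ± 0.443 CPM), 165, 85 and 291 counts on day 2 (22.4 ± 2.49 CPM), 264, 219 and 174 counts on day 6 (24.6 ± 1.55 CPM), and 343, 371 and 423 counts on day 12 (41.7 ± 1.71 CPM). Every treated library lay above every control library in CPM, and day 12 lay above the other treated days. Against control, Gbp2 was 3.23-fold higher on day 2, 3.48-fold higher on day 6 and 5.90-fold higher on day 12. These are log2 differences of 1.69 ± 0.13, 1.80 ± 0.12 and 2.56 ± 0.11 (SE), with edgeR adjusted p = 5.09e-13, 9.47e-15 and 8.74e-20. Every edgeR adjusted p is from the quasi-likelihood test, adjusted over the 13513 genes by the Benjamini-Hochberg method, and 0.05 is the threshold. The step from day 2 to day 6 did not pass (0.11 ± 0.10, edgeR adjusted p = 0.415), whereas day 12 was above day 6 by 0.76 ± 0.09 (edgeR adjusted p = 1.59e-07).

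Gbp3 and Gbp7, neighbours in the same chromosome 3 run, had much lower counts. Gbp3, which gathers on the Toxoplasma vacuole in interferon-treated mouse cells, had 4, 1 and 8 counts in control libraries, 19, 10 and 35 on day 2, 37, 20 and 10 on day 6, and 16, 33 and 47 on day 12. Every treated library lay above every control library in CPM, and the treated days overlapped among themselves. The rise over control was 2.38 ± 0.50 on day 2, 2.26 ± 0.49 on day 6 and 2.75 ± 0.46 on day 12 on the log2 scale (edgeR adjusted p = 0.000465, 0.000262 and 8.76e-06), and no difference between treated days passed. Single control libraries weigh on these sizes: without control C, with 8 counts, they were 3.05, 2.93 and 3.42. Without control B, with 1 count, they were 2.02, 1.89 and 2.39 and still passed. With limma on log2(TPM + 1), a scale that compresses low values, they were 1.05, 1.25 and 1.21, and with no TPM filter the day 2 value did not pass there (limma adjusted p = 0.0644). In the authors' TPM, 1 CPM of Gbp3 was worth 0.583 TPM in control B but 2.12 TPM in day 6 C, so the 2 tables rank its libraries differently.

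Gbp7, which in mouse macrophages binds parts of the NADPH oxidase and of the autophagy machinery, had 15, 37 and 11 counts in control, 23, 16 and 53 on day 2, 58, 73 and 34 on day 6, and 99, 104 and 94 on day 12. On day 12 all 3 libraries (10.96 ± 1.13 CPM) lay above control (2.67 ± 2.14 CPM), while day 2 and day 6 overlapped with control through control B (5.12 CPM). In TPM the day 6 libraries (2.07, 3.49 and 1.69) lay above those of control (0.74, 1.64 and 0.72), and day 2 still overlapped. Between libraries, 1 CPM of Gbp7 was worth from 0.268 TPM (day 2 B) to 0.623 TPM (control C). The log2 difference from control was 0.63 ± 0.42 on day 2, which did not pass (edgeR adjusted p = 0.350). It was 1.29 ± 0.38 on day 6 (edgeR adjusted p = 0.00996) and 2.12 ± 0.35 on day 12 (edgeR adjusted p = 0.000123). Without control B the values were 1.44 on day 2, which then passed (edgeR adjusted p = 0.00152), 2.10 on day 6 and 2.92 on day 12. Without control A the day 6 rise did not pass (1.08, edgeR adjusted p = 0.0519), nor in a fit of those 2 groups alone (edgeR adjusted p = 0.0542). Over the 23 alternative fits the day 12 value ran from 1.23 to 2.92 and passed in each. Day 12 was above day 2 by 1.49 ± 0.33 (edgeR adjusted p = 0.00207).

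Gbp9, from the chromosome 5 cluster and also found on the Toxoplasma vacuole, had 12, 12 and 9 counts in control, 14, 10 and 20 on day 2, 21, 18 and 17 on day 6, and 34, 26 and 46 on day 12. In CPM the treated libraries of each day lay above all control libraries, by small margins on days 2 and 6. Only the day 12 difference passed, at 1.57 ± 0.31 on the log2 scale (3.87 ± 0.907 CPM against 1.33 ± 0.363 CPM in control, edgeR adjusted p = 5.77e-05), and day 6 was at 0.69 ± 0.34 (edgeR adjusted p = 0.0872). With limma on log2(TPM + 1) the day 12 value was 0.68 and still passed. Summed with the overlapping Gbp4 and Gbp8, counts were 23, 20 and 20 in control, 15, 12 and 32 on day 2, 22, 25 and 22 on day 6, and 47, 43 and 59 on day 12. The day 12 difference of the sum was 1.13 (edgeR adjusted p = 0.000152), and on days 2 and 6 the sum differed from control by 0.02 and 0.07 without passing.

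Gbp5, a promoter of inflammasome assembly in macrophages, was the scarcest: 1, 2 and 0 counts in control, 6, 2 and 8 on day 2, 2, 3 and 1 on day 6, and 5, 6 and 6 on day 12. It was below the filter on low counts and was not tested in the fit of all genes. Counts were pooled over the libraries of each group and scaled to their summed sizes. On that scale day 2 held 5.82 times (95% interval 1.67 to 31.2) and day 12 held 5.30 times (1.53 to 28.3) the level of control, from 16 and 17 against 3 counts in all. These intervals cover counting error only. With no filter, day 12 passed (2.26 ± 0.91, edgeR adjusted p = 0.0463) and day 2 did not (2.37 ± 0.92, edgeR adjusted p = 0.0800).

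Irgm1, the regulatory immunity-related GTPase that also acts in autophagy and in mitochondrial quality control, was the most abundant of the 8 and changed in both directions. Control libraries held 430, 299 and 411 counts (44.6 ± 4.33 CPM), day 2 held 296, 156 and 417 (37.5 ± 2.47 CPM), day 6 held 574, 511 and 440 (57.4 ± 1.15 CPM) and day 12 held 693, 615 and 721 (74.6 ± 5.94 CPM). In CPM none of the 4 groups overlapped: day 2 was lowest, then control, day 6 and day 12. On day 6 Irgm1 was above control by 0.36 ± 0.08 (edgeR adjusted p = 0.000341) and on day 12 by 0.74 ± 0.08 (edgeR adjusted p = 9.09e-10), which is 1.67-fold. The day 2 value was -0.26 ± 0.09 (edgeR adjusted p = 0.0331), the 1 fall among the tested GTPases. That fall did not pass with DESeq2 (adjusted p = 0.0692), with limma on log2(TPM + 1) (adjusted p = 0.0665), in a fit of the 2 groups alone (edgeR adjusted p = 0.0713), or without control A, day 2 B or day 2 C (edgeR adjusted p = 0.222, 0.0602 and 0.154). The later steps passed: day 6 was above day 2 by 0.62 ± 0.09 (edgeR adjusted p = 3.14e-07) and day 12 above day 6 by 0.38 ± 0.08 (edgeR adjusted p = 0.000394), the second lost under 1 of 23 alternatives.

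Igtp and Irgm2, the other 2 regulatory members, passed no comparison. Irgm2 had 119, 95 and 147 counts in control, 84, 69 and 151 on day 2, 142, 154 and 119 on day 6, and 134, 131 and 163 on day 12, and its libraries overlapped with control in CPM on every day. Its log2 differences from control were -0.10 ± 0.14, 0.15 ± 0.13 and 0.15 ± 0.13 on days 2, 6 and 12 (edgeR adjusted p = 0.684, 0.361 and 0.342). Igtp had 102, 74 and 121 counts in control, 70, 47 and 125 on day 2, 124, 100 and 68 on day 6, and 125, 104 and 118 on day 12. It too overlapped with control on every day, with differences of -0.16 ± 0.15, -0.09 ± 0.15 and 0.14 ± 0.14 (edgeR adjusted p = 0.513, 0.627 and 0.440). Summed over the libraries of a group, both genes had more counts than Gbp3, Gbp7 and Gbp9 in every group. Adding the counts of these overlapping genes gave 259, 235 and 281 on day 12 against 221, 169 and 268 in control, a difference of 0.15 that did not pass (edgeR adjusted p = 0.230). The sum on day 12 was above that on day 2 by 0.27 (edgeR adjusted p = 0.0319), where neither gene passed alone. The RefSeq promoter windows of this pair hold the GAS and ISRE letters shown above.

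**Figure D3:**
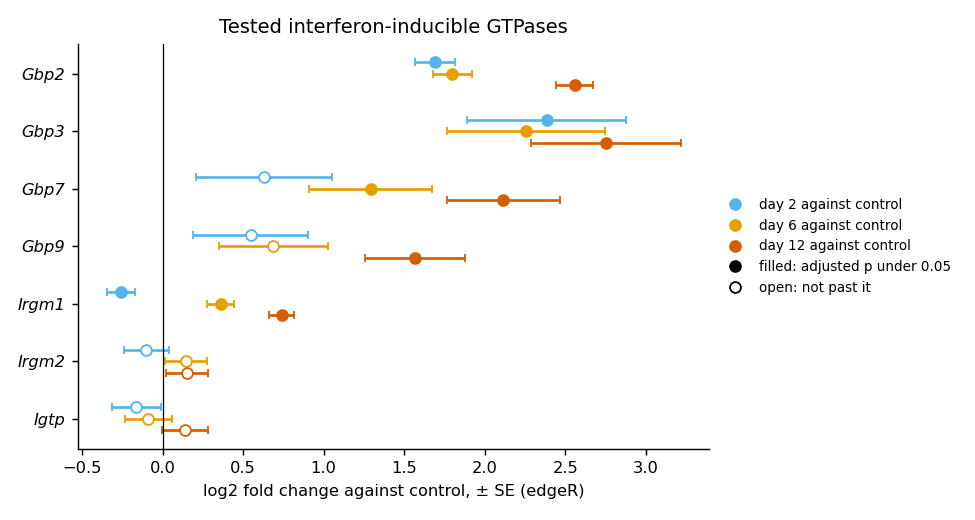
Log2 fold change against control of the 7 tested GTPase genes on days 2, 6 and 12, with SE bars from edgeR; filled points passed the adjusted threshold and open points did not. Gbp2 and Gbp3 sit above 1.5 on every day, Gbp7, Gbp9 and Irgm1 reach their highest value on day 12, and Irgm2 and Igtp stay within 0.2 of 0.

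On day 2, 2 of the 7 tested GTPases rose (Gbp2, Gbp3), 1 fell (Irgm1) and 4 did not pass, when 21.2% of all tested genes passed (10.3% higher and 10.9% lower). On day 6, 4 rose (Gbp2, Gbp3, Gbp7, Irgm1) and 3 did not pass, and 54.3% of all tested genes passed (26.7% higher and 27.6% lower). On day 12, 5 rose (these and Gbp9), none fell and 2 did not pass, and 52.8% of all tested genes passed (26.1% higher and 26.6% lower). The share of members past the threshold on day 6 is close to that of all genes, and the 3 comparisons with control share its libraries. Gbp3 had few control counts and passed the filter through treated libraries, so it could hardly be called lower. Between treated days, 1 member passed for day 6 against day 2 (44.9% of all genes), 3 for day 12 against day 6 (22.0%) and 4 for day 12 against day 2 (43.9%), all higher on the later day. In the test of any difference among the 4 groups, 5 of 7 passed, against 65.1% of all genes. The median log2 change of all tested genes was within 0.01 of 0 in each of the 6 contrasts.

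The list of other interferon-inducible GTPases held 19 genes, of which 7 passed the filter. None was lower: 5 of 7 rose on day 2, 7 of 7 on day 6 and 7 of 7 on day 12, with median log2 changes of 1.68, 2.66 and 3.43. Of all tested genes, 10.3%, 26.7% and 26.1% were higher on these days. Genes with few control counts, such as Gbp6 and Iigp1, passed the filter through treated libraries and could hardly be called lower. The counts and medians of this list are in part set by that filter. Gbp6, a guanylate-binding protein of the chromosome 5 cluster that holds Gbp9, had 2 counts in each control library, 16, 12 and 16 on day 2, 40, 45 and 32 on day 6, and 79, 105 and 130 on day 12. Its libraries did not overlap between any of the 4 groups, and its rise was 2.95 ± 0.49, 4.14 ± 0.40 and 5.52 ± 0.34 (edgeR adjusted p = 1.39e-05, 9.19e-11 and 6.97e-16). Effector immunity-related GTPases, those that Irgm1, Irgm2 and Igtp restrain, also rose by day 12. Tgtp1 stood at 9.93 ± 2.00 CPM on day 12 against 0.928 ± 0.462 CPM in control (3.43 ± 0.30, edgeR adjusted p = 4.53e-12). Iigp1 stood at 2.72 ± 0.365 CPM against 0.150 ± 0.177 CPM (4.00 ± 0.55, edgeR adjusted p = 1.34e-07). Ifi47 stood at 3.64 ± 0.473 CPM against 1.25 ± 0.481 CPM (1.49 ± 0.32, edgeR adjusted p = 0.000181) and had not passed on day 2 (edgeR adjusted p = 0.104). The day 2 rise of Iigp1 rests on 4, 3 and 14 counts against 3, 0 and 1 in control and was lost under 6 of 22 alternatives, among them those without control B, control C or day 2 C.

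The last 3 tested genes of that list are known by clone or model names: 9930111J21Rik1 and 9930111J21Rik2 beside Tgtp1 on chromosome 11, and Gm4070 near Gvin1 on chromosome 7. On day 12, 9930111J21Rik2 was higher by 3.11 ± 0.19 (18.7 ± 2.05 CPM against 2.21 ± 0.508 CPM in control, edgeR adjusted p = 4.62e-16). Gm4070 was higher by 4.23 ± 0.36 (edgeR adjusted p = 9.67e-10) and 9930111J21Rik1 by 2.38 ± 0.67 (edgeR adjusted p = 0.00932). Tgtp1 and Tgtp2, and the pair of 9930111J21Rik genes, are near-identical copies, so their split of reads is uncertain. The day 2 rises of Gm4070 and 9930111J21Rik2 were lost under 3 and 2 of 23 alternatives. In 9930111J21Rik1 the day 2 libraries held 2, 0 and 29 counts. The other 12 genes of the list, which include Gbp2b (0 counts throughout), Gbp4, Gbp8, Gbp10, Gbp11, Mx1 and Mx2, had at most 21 counts in a library. Gbp4 had 11, 13 and 11 counts on day 12 and 3, 2 and 5 in control.

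**Figure D4:**
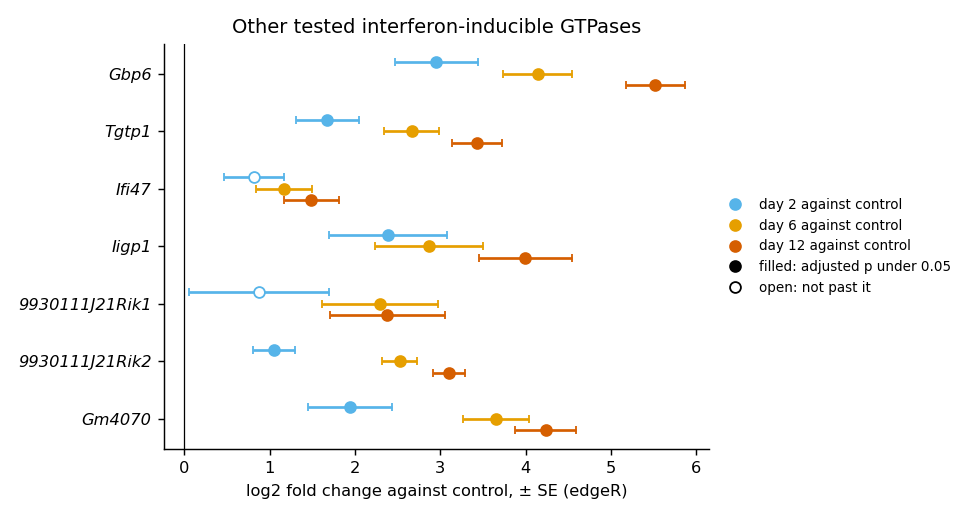
Log2 fold change against control, with SE bars from edgeR, of the 7 tested genes from the list of other interferon-inducible GTPases on days 2, 6 and 12; filled points passed the adjusted threshold. Every point lies above 0, and Gbp6 reaches 5.52 on day 12.

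Genes of 4 inducers were at 0. Ifng, Ifnb1, Ifnl2 and Ifnl3, the genes of interferon-gamma, interferon-beta and the lambda interferons, had 0 counts in all 12 libraries. Pooled over these libraries, that allows an average level of up to 0.0292 CPM (3 counts of all 102720081, counting error only). The limit for any single group is higher, since each holds only part of these counts. Of the 16 genes of interferons, receptors and JAK-STAT signalling, 12 were tested: 5 were higher and 1 lower on day 2, 9 and 2 on day 6, and 8 and 0 on day 12. Ifngr1, the ligand-binding chain of the interferon-gamma receptor, stood at 126 ± 7.42 CPM in control, 194 ± 19.6 CPM on day 2, 325 ± 5.71 CPM on day 6 and 302 ± 12.5 CPM on day 12, without overlap between control and any treated day. Its rise was 0.63 ± 0.06, 1.36 ± 0.06 and 1.26 ± 0.06 (edgeR adjusted p = 1.32e-09, 2.83e-19 and 2.25e-18). Ifngr2, its signalling chain, rose by 0.63 to 0.73, and Ifnar2, of the type I receptor, by 0.48 to 0.86 on the 3 days. Jak2, the kinase bound to Ifngr2, was at 0.02 ± 0.07 on day 2, rose by 0.44 ± 0.07 on day 6 and by 1.01 ± 0.06 on day 12 (edgeR adjusted p = 0.893, 6.64e-07 and 1.95e-15).

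Irf1, an activator of GTPase genes through ISRE, rose by 0.47, 0.60 and 0.53 on days 2, 6 and 12 (edgeR adjusted p = 1.06e-05, 2.08e-08 and 2.41e-07). Other factors of its family fell. Irf8 fell by 0.90, 1.56 and 1.37 over the 3 days, with 8.62 ± 0.297 CPM on day 12 against 22.3 ± 1.62 CPM in control, Irf4 was at 0.414 ± 0.256 CPM on day 12 against 5.98 ± 0.596 CPM, and Irf7 fell by 1.07 on day 2 (edgeR adjusted p = 0.000507). Of the 8 IRF genes, 1 was higher and 3 lower on day 2, 1 and 4 on day 6, and 2 and 2 on day 12.

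Among 9 brakes on the pathway, 2 were higher and 1 lower on day 2, 3 and 3 on day 6, and 3 and 2 on day 12. Socs1, the JAK inhibitor that interferon induces, did not pass on any day (0.85 ± 0.34, 0.60 ± 0.34 and 0.75 ± 0.33, edgeR adjusted p = 0.0704, 0.130 and 0.0565). Socs3 rose by 0.45, 1.03 and 1.04, and Pias1 by 0.29, 0.57 and 0.56, while Cish fell by 0.49, 0.66 and 0.69. Their day 2 calls were lost under 3, 4 and 5 of 23 alternatives for Socs3, Pias1 and Cish.

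The other interferon targets moved in both directions, with more genes higher than lower in both lists on each day. On day 12, 63.2% of the tested interferon-gamma targets and 52.4% of the tested type I targets were higher. The share was 71.4% for the 7 tested members and 26.1% for all tested genes. Gbp3 and the interferon-gamma target Serpina3g had few control counts, passed the filter through treated libraries and could hardly be called lower. Median log2 changes on day 12 were 0.72 and 0.59 for these target lists, against 1.57 for the members. That median is the value of Gbp9, which was 1.13 when summed with its overlapping genes and 0.68 with limma on log2(TPM + 1). Of 25 interferon-gamma targets, 19 were tested: 7 were higher and 2 lower on day 2, 8 and 5 on day 6, and 12 and 2 on day 12. Ciita, the activator of MHC class II genes, fell by 1.86 ± 0.29, 3.20 ± 0.33 and 1.70 ± 0.27 (edgeR adjusted p = 5.39e-06, 3.97e-10 and 2.47e-06), with the day 2 and day 12 calls each lost under 1 of 23 alternatives. It held 1.94 ± 0.167 CPM on day 12 against 6.28 ± 1.33 CPM in control. Cd274, the gene of PD-L1, was higher, with 34.1 ± 2.81 CPM on day 6 and 21.5 ± 0.905 CPM on day 12 against 1.89 ± 0.571 CPM in control. Tapbp, a peptide-loading factor of MHC class I, rose by 0.21, 0.41 and 0.61, the first lost under 3 of 23 alternatives. Serpina3g had 2 counts over the control libraries, 11 on day 2, 141 on day 6 and 323 on day 12. Scaled to the summed library sizes of each group, these pooled counts are 6.00 times (95% interval 1.31 to 55.7), 67.5 times (18.3 to 563) and 151 times (41.5 to 1254) those of control. The intervals cover counting error only. On day 2 its libraries overlapped with control, and the edgeR call (adjusted p = 0.0423) was lost under 9 of 22 alternatives.

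Of 24 type I interferon targets, 21 were tested: 7 were higher and 3 lower on day 2, 10 and 3 on day 6, and 11 and 2 on day 12. Ifit3, an antiviral RNA-binding protein gene with a near-identical neighbour, held 78.0 ± 2.34 CPM in control, 7.71 ± 2.67 CPM on day 2, 20.9 ± 3.72 CPM on day 6 and 16.8 ± 1.49 CPM on day 12. Oasl1 fell by 0.55, 1.70 and 1.75, the first lost under 10 of 23 alternatives, whereas Xaf1 was higher by 0.67, 1.05 and 1.46 and Parp14 by 0.87, 0.69 and 0.82. The day 2 call of Xaf1 was lost under 3 of 23 alternatives.

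**Figure D5:**
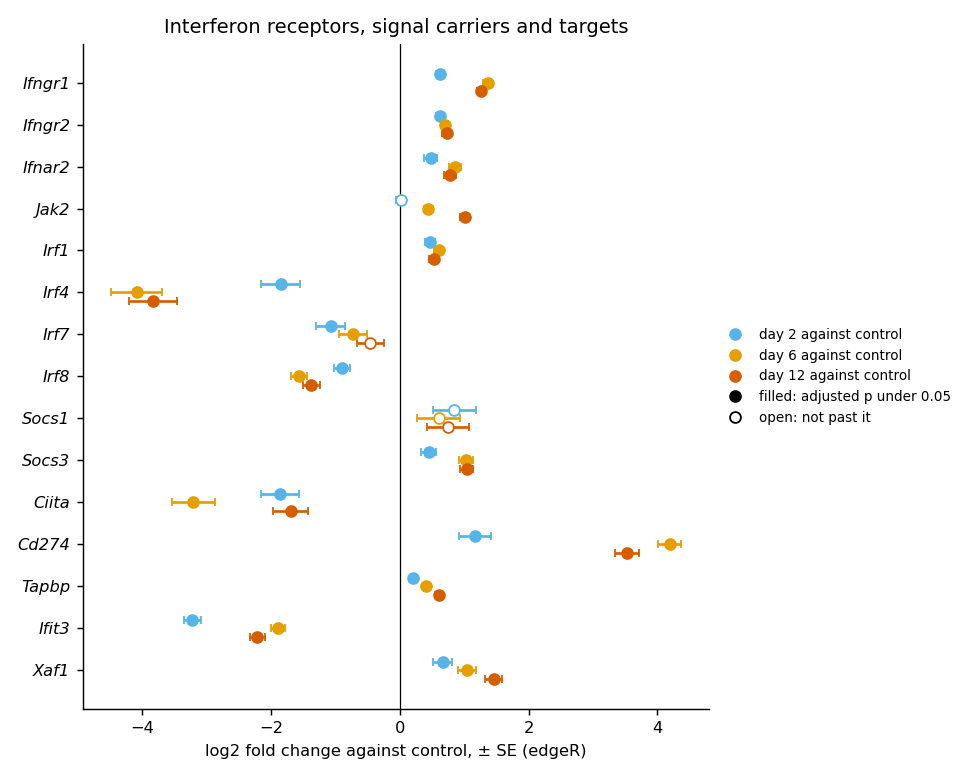
Log2 fold change against control, with SE bars from edgeR, of receptor, signalling, brake and target genes of the interferon pathway on days 2, 6 and 12; filled points passed the adjusted threshold. Ifngr1, Ifngr2, Ifnar2 and Irf1 lie above 0 on all 3 days, and Irf4, Irf7, Irf8, Ciita and Ifit3 lie below it.

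Lists of partner processes were counted as well. Of 16 genes for ATG8 conjugation and autophagy adaptors, which load these GTPases onto vacuoles or bind them there, 3 were higher and 1 lower on day 2, 9 and 3 on day 6, and 9 and 2 on day 12. Gabarapl1 rose by 1.33 ± 0.07 on day 6 and Sqstm1, the adaptor p62, by 0.91 ± 0.05 (edgeR adjusted p = 1.39e-18 and 4.01e-17). Of 14 inflammasome and cell death genes, 6 were tested: 2 were higher and 1 lower on day 2, and 3 and 1 on days 6 and 12. Casp4, the sensor of lipopolysaccharide that works with guanylate-binding proteins in macrophages, was at 2.10 ± 0.0393 CPM on day 12 against 0.340 ± 0.262 CPM in control (2.52 ± 0.49, edgeR adjusted p = 4.56e-05). Zbp1 was higher by 1.23, 1.53 and 1.43, and Casp8 fell by 0.33, 0.66 and 0.62. The day 2 call was lost under 6 of 23 alternatives for Zbp1, among them those without control A, control B or day 2 A, and under 1 for Casp8. Of 9 nucleic acid sensors and adaptors, 0 passed on day 2, with 3 of 9 at an unadjusted p under 0.05 in edgeR and 0 called by DESeq2 or limma. Of these 9, 5 were higher and 1 lower on day 6, and 5 and 0 on day 12. Ddx58, the gene of RIG-I, which the type I target list also holds, rose by 0.41 on day 6 and 0.77 on day 12.

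The genes flanking the 4 clusters did not share 1 direction. Of the 8 nearest tested protein-coding neighbours, chosen by position, 1 was higher and 2 lower on day 2, 3 and 4 on day 6, and 4 and 4 on day 12. Of all tested genes, 10.3% were higher and 10.9% lower on day 2. The shares were 26.7% and 27.6% on day 6, and 26.1% and 26.6% on day 12. The split of these 8 neighbours is a description and was not tested. Pdlim5, 98282 bases before the chromosome 3 cluster, rose by 1.01 ± 0.06 on day 12, and Trim7, 9759 bases before the Irgm1 cluster, fell by 1.29 ± 0.13.

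Across the 12 libraries, Gbp9 (Pearson r = 0.89), Gbp2 (0.87), Gbp7 (0.84), Irgm1 (0.83) and Gbp3 (0.70) followed the mean standardised log2 CPM profile of the 7 tested GTPases, and Irgm2 (0.60) and Igtp (0.51) had lower values. With log2(TPM + 1) Irgm2 (0.70) stood above Gbp3 (0.68). By Spearman correlation Irgm1 and Gbp3 were both at 0.70, with Irgm2 at 0.64 and Igtp at 0.41. The places of Irgm1, Gbp3 and Irgm2 in the order therefore depend on the measure. The mean holds each gene's own profile, and the libraries share 4 groups. Outside all lists, the genes most like that profile were Ptgfr (r = 0.99), the prostaglandin F receptor, Kansl1 (0.98), Dusp10 (0.97), Tle4 (0.97), Tax1bp3 (0.97) and Ifi27 (0.97), with 8795 of the 13513 genes differing among groups. Of these 6, Ptgfr and Tle4 were also among the first 6 by Spearman correlation, and Tle4 alone with log2(TPM + 1). Most like Irgm2 were Slc35f6, Nod2 and Dnah2 (r = 0.90, 0.89 and 0.89), and most like Igtp were Mrm1, Denr and Syt2 (0.86, 0.86 and 0.84). These also depend on the measure: by Spearman correlation only Denr recurred, for Igtp, and with log2(TPM + 1) none of the 6 did.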

How the data were processed

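Each group's libraries were taken from the labels, and all 12 were used, with 0 columns left out. Per the submitters' processing notes, the files go back to RSEM 1.3.3 and STAR 2.7.8a on GRCm38, with FastQC 0.11.8 and cutadapt 2.3. The annotation release, strand setting and filters were not given in the sources used here. The authors deposited RSEM expected counts as whole numbers, not normalized, and a table of TPM values.

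For the counts, edgeR 4.0.16 (R 4.3.3) kept 13513 genes by filterByExpr, scaled the libraries by TMM and fitted a quasi-likelihood model of group alone, with 8 residual degrees of freedom and a biological coefficient of variation of 0.0577. Tests were two-sided and adjusted by Benjamini-Hochberg over all genes tested. CPM uses TMM-scaled totals. The SE of a log2 fold change is its size divided by the square root of the F statistic. DESeq2 1.42.0 and limma 3.58.1 on log2(TPM + 1) or log2(TPM + 0.1) were alternatives, with other scalings and filters, each library left out in turn, and a sum over overlapping genes added after the data were seen. The fit was tested on simulated data. Replicate pairs gave a chi-square of 2.12 to 7.56 per degree of freedom, so no library was a copy of another.

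Positions came from GENCODE M21 (55227 of 55491 IDs found) and promoters from RefSeq. The members and gene lists were chosen with earlier results of these data known. Named genes were the members, genes of the list of other GTPases, up to 4 genes of each other list with the smallest p across groups, 8 pathway genes named whatever their values (1 is not reported here), Pax8, and the genes with the most similar profiles. Flanking, marker and other interferon genes named besides were chosen after values were seen. All 138 list symbols were matched.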

Additional observations from a re-analysis of the deposited data

Results flagged for a closer look

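Differences between treated days passed the test of the difference itself for 4 of the GTPases (edgeR's quasi-likelihood test, Benjamini-Hochberg adjusted, log2 scale ± SE). Of the 7 tested members, 1 passed for day 6 against day 2, 3 for day 12 against day 6 and 4 for day 12 against day 2. The shares of all tested genes were 44.9%, 22.0% and 43.9%. Gbp2 was higher at day 12 than at day 6 by 0.76 ± 0.09 (edgeR adjusted p = 1.59e-07) and than at day 2 by 0.87 ± 0.10 (edgeR adjusted p = 4.10e-09). Irgm1 was higher at day 6 than at day 2 by 0.62 ± 0.09, at day 12 than at day 6 by 0.38 ± 0.08 and at day 12 than at day 2 by 1.00 ± 0.08 (edgeR adjusted p = 3.14e-07, 0.000394 and 4.39e-12). In each of these 5 comparisons all 3 libraries of the later day lay above all 3 of the earlier day. Gbp7 was higher at day 12 than at day 2 by 1.49 ± 0.33 (edgeR adjusted p = 0.00207), also without overlap. These comparisons were listed because they passed, so the lack of overlap is no separate support, and its share over all genes was not counted. Gbp9 was higher at day 12 than at day 6 by 0.88 ± 0.28 and than at day 2 by 1.02 ± 0.30 (edgeR adjusted p = 0.0221 and 0.00526). These calls for Gbp9 were lost under 8 and 3 of 23 alternatives, and limma on log2(TPM + 1) gave 0.39 and 0.44. They rest on 34, 26 and 46 counts at day 12 against 21, 18 and 17 at day 6 and 14, 10 and 20 at day 2.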

How the results depend on the processing

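The counts of GTPases past the threshold stayed within 1.5 times the reported ones in 154 of 160 recomputations, and the rest are these. With limma on log2(TPM + 1) and no TPM filter, 1 of 8 passed for day 2 against control (reported 3) and 1 for day 12 against day 6 (reported 3). For day 6 against day 2 (reported 1), 2 passed with no filter on low counts and 2 in a fit of those 2 groups only. Leaving out each library in turn gave 2 to 4 at day 2, 3 to 4 at day 6 and 5 at day 12 against control, 1 to 2 for day 6 against day 2, 2 to 4 for day 12 against day 6 and 4 to 5 for day 12 against day 2. Leaving out control B or day 2 B gave the count of 2 for day 6 against day 2. Among single genes, Ifih1 turned round for day 12 against day 6, from a rise of 0.49 to -0.047 with limma on log2(TPM + 1), -0.044 on log2(TPM + 0.1) and -0.047 with no TPM filter, and the cause was not tested. Of the other recomputed single-gene tests, 265 no longer passed, 62 newly passed and 6279 stayed on their side of the threshold, and 118 of 1188 list counts moved by over 1.5 times.

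The replicate letters gave no sign of pairing: correlations of same-letter deviations ran from -0.15 to 0.11, with 1 of 18 pairs over 0.1. Such correlations cannot show whether a letter marks a shared culture or batch. With the letter as a replicate block, 3, 4 and 5 members passed against control at days 2, 6 and 12, 1 for day 6 against day 2, 4 for day 12 against day 6 (Gbp7 added, adjusted p = 0.0129) and 4 for day 12 against day 2. Low counts of Gbp3, Gbp5, Gbp7 and Gbp9 limit the precision of their folds. The choice among overlapping genes bears on Igtp, Irgm2 and Gbp9.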
